A study of Mus musculus with 12 samples.

Results

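The genes examined here encode the nuclear subunits of oxidative phosphorylation and the proteins named with them. They were taken by symbol from the deposited gene table: every symbol that starts with Nduf, Uqcr or Atp5, or with Cox4 to Cox8 apart from Cox6a2, together with Sdha, Sdhb, Sdhc and Sdhd. This gave 91 of the 17523 genes in the table. The rule reads symbols only, but it was set with earlier results of these data known. The levels of Cox6a2 are given with complex IV. By function, 48 belong to complex I, 4 to complex II, 8 to complex III, 14 to complex IV and 17 to complex V. The prefixes also bring in genes that are not subunits, namely 8 assembly factors of complex I and 4 copies or pseudogenes of complex I subunits. Cox7a2l, known as a factor for supercomplexes of complexes III and IV, is not counted as a subunit either. The remaining 78 genes are subunits of the 5 complexes. Ndufa4, first assigned to complex I, was counted with complex IV, where the protein is found.

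Oxidative phosphorylation takes place in the inner mitochondrial membrane. Complexes I and II pass electrons from NADH and succinate to ubiquinone, complex III hands them to cytochrome c, and complex IV gives them to oxygen. Protons pumped by complexes I, III and IV drive complex V, the ATP synthase. Resting T cells make most of their ATP in this way, and mitochondrial respiration is known to support the persistence of memory T cells. Each complex except complex II also holds subunits made from mitochondrial DNA, which were not analysed here.

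The RNA came from CD4+ T cells that were sorted by flow cytometry from spleens of unimmunized Gr/fr mice on a C57BL/6 background. In these mice the Csf2 allele, which encodes GM-CSF, also carries iCre and BFP under the gene's own promoter, and the Rosa26 locus carries eYFP behind a loxP-flanked stop. YFP therefore marks cells that express GM-CSF, or whose ancestors did, and all groups carry both alleles. The 4 groups of 3 libraries were naïve YFP- and naïve YFP+ cells (CD62L+CD44-), and effector memory (TEM) YFP- and TEM YFP+ cells (CD62L-CD44hi). The labels number the replicates but do not say which libraries came from which animal, so p-values measure the spread between these libraries. The design gives 4 comparisons: TEM against naïve cells within each YFP state, and YFP+ against YFP- cells within TEM and within naïve cells. The interaction is the difference between the last 2.

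Reads assigned to genes ranged from 40974124 to 57822269 per library. Summed levels of 8 T cell markers were 255042 to 344937 normalized counts, and 6 memory markers rose in TEM cells in both YFP states. Markers of other cells moved with the groups. The summed level of 10 plasmacytoid dendritic cell markers was 2741 to 3830 in naïve, 13976 to 24080 in TEM YFP- and 7046 to 9967 in TEM YFP+ libraries. For 10 markers of conventional dendritic cells and macrophages it was 12377 to 24163 in TEM YFP- and 2271 to 4454 in TEM YFP+ libraries. In naïve libraries that sum reached 3706 in YFP+ replicate 2 and was 893 or less in the others. Of the 10 plasmacytoid markers, all 10 were higher in TEM than naïve YFP- cells, 6 in YFP+ cells, and 8 were lower in TEM YFP+ than TEM YFP- cells. Among these markers, Siglech and Klk1 were at 16.7 and 3.94 or less in every naïve library. Siglech was at 1412 to 3367 in TEM YFP- and 26.9 to 118 in TEM YFP+ libraries. Ccr9 went the other way, with 497 to 1218 in TEM YFP- and 1096 to 3405 in TEM YFP+ libraries, and Bst2 was at 1968 or more in every naïve library. The 2 CD8 T cell markers summed to 1218 and 542 on average in naïve YFP- and YFP+ cells and to 1122 and 284 in TEM YFP- and YFP+ cells. Of 8 B cell markers, 2 were higher and 5 lower in TEM than naïve YFP- cells. Markers of dividing cells summed to 10298 to 11883 in naïve, 41255 to 56046 in TEM YFP- and 29933 to 36931 in TEM YFP+ libraries. The part of these cells in the results below was not tested, and fewer cells of a type cannot be told apart from less RNA per cell in bulk libraries.

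Promoter sequence was available from RefSeq (GRCm38.p6) for 75 of the 91 genes, as a window from 250 bases before to 50 after the start. The 4 motifs were searched on both strands as fixed letters. NRF1, a regulator long tied to respiratory genes, was searched as GCGC, then any base and T, then GCGC. The others were the ETS letters CCGGAAG, the YY1 letters AAGATGGC and CCAAT. The NRF1 letters were in 25.3% of these promoters, against 5.19% of all 27025 genes with a window and 10.6% of the genes with a window that were tested here. For ETS the shares were 25.3%, 9.93% and 18.8%, for YY1 14.7%, 3.19% and 4.87%, and for CCAAT 44.0%, 41.1% and 42.9%. Of the 17 windowed genes that changed between TEM and naïve cells in at least one YFP state, 3 held the NRF1 letters (17.6%), as did 16 of the 58 that did not pass the test (27.6%). These shares describe letters in a window and were not tested.

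Stretches of 34 bases around the NRF1 letters are shown for 9 members of complexes I, II, IV and V, so that the shared letters and their differing middle bases can be compared. Capitals mark the NRF1 letters on either strand, coordinates are in GRCm38.p6, and each is written 5′ to 3′ along its gene.
Sdhd (chr9:50603907-50603940, minus strand): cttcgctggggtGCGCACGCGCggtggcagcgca
Ndufaf4 (chr4:24897958-24897991, plus strand): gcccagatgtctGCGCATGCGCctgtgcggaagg
Sdha (chr13:74350317-74350350, minus strand): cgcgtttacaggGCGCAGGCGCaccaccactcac
Ndufa8 (chr2:36049347-36049380, minus strand): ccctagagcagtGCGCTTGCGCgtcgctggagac
Ndufs5 (chr4:123718263-123718296, minus strand): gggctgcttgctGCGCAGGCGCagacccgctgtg
Cox6a1 (chr5:115349099-115349132, minus strand): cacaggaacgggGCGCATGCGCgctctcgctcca
Atp5g2 (chr15:102671068-102671101, minus strand): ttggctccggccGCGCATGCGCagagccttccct
Atp5h (chr11:115420039-115420072, minus strand): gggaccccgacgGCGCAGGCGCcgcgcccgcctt
Atp5k (chr5:108434428-108434461, minus strand): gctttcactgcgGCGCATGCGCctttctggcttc
Of these genes, Sdhd and Ndufaf4 changed between TEM and naïve cells in both YFP states, in opposite directions.

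The next 4 sequences are the 160 bases before the start of the RefSeq window of genes whose change between TEM and naïve cells held under every alternative tried. Capitals mark CCAAT on either strand, the only one of the motifs found in them. For Ndufaf7 that start lies downstream of the gene's first annotated base, so that its last printed bases are inside the gene.
Cox7a2l (chr17:83514334-83514493, minus strand): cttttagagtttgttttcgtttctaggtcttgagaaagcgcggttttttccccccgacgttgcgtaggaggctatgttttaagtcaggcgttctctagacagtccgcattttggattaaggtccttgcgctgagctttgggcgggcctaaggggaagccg
Ndufaf7 (chr17:78936975-78937134, plus strand): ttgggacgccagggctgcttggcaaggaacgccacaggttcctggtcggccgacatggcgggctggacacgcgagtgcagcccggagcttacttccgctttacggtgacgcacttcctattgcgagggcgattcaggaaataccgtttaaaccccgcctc
Ndufb8 (chr19:44555443-44555602, minus strand): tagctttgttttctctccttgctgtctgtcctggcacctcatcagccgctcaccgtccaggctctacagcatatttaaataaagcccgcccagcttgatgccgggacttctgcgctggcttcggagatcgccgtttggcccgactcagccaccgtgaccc
Ndufs8 (chr19:3912775-3912934, minus strand): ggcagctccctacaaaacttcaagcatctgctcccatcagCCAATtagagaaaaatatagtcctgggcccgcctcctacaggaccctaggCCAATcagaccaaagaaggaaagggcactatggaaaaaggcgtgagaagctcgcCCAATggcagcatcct
The printed bases of Cox7a2l, Ndufaf7 and Ndufb8 hold none of the letters searched, while those of Ndufs8 hold CCAAT at 3 places. Cox7a2l fell in TEM cells and the other genes rose, as described below.

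Normalized counts per kb of exon, averaged over all 12 libraries, placed complex V highest and complex I lowest. This level compares genes by length and could be given for 87 of the members tested. The exon length covers all GENCODE basic transcripts of a gene and makes a gene with long minor transcripts look low. Its median was 4221 for the 17 genes of complex V, 3115 for 14 of complex IV, 2806 for 8 of complex III, 2480 for 4 of complex II and 1279 for 44 of complex I. Atp5b, the catalytic beta subunit of ATP synthase, was highest with 14906 normalized counts per kb. It was followed by Cox7a2l (12787), Cox4i1 (11137), one of the first subunits to join the core of complex IV, Atp5a1 (10299), the alpha subunit of ATP synthase, and Uqcrh (9109), the hinge protein of complex III. At the other end were 2 isoforms of complex IV subunits known from other tissues. Cox7a1, the heart and muscle form of subunit 7a, had 10.3 and Cox6b2, the testis form of subunit 6b, had 13.3 normalized counts per kb.

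**Figure D1:**
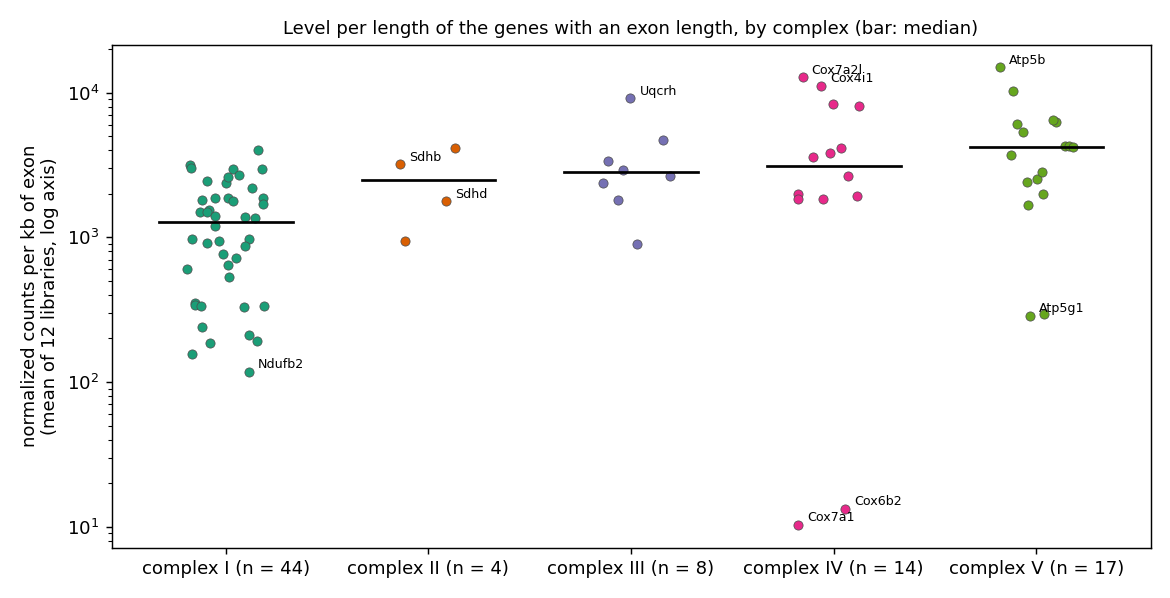
Level per length (mean normalized counts per kb of exon over 12 libraries, log axis) of the 87 members with an exon length and a test, each point a gene and each bar the median of a complex. Medians run from 1279 in complex I to 4221 in complex V, and Cox7a1 and Cox6b2 lie far below the other genes of complex IV.

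Alternative genes encode some subunits, and their shares per length are given over the 4 group means. For subunit c, which forms the rotor ring of ATP synthase, Atp5g3 gave 49.1 to 50.4%, Atp5g2 47.4 to 48.7% and Atp5g1 2.24 to 2.29% of the summed level per kb. The exon length of Atp5g1, 4912 bases, is longer than those of Atp5g2 (731) and Atp5g3 (724), so that length lowers its share on this scale. Cox6b1, the ubiquitous form of subunit 6b, gave 99.4 to 99.8% of the level of Cox6b1 and Cox6b2, and Cox6b2 0.302% in naïve YFP- and 0.638% in TEM YFP- cells. The shares of subunit 7a, which differed more, are given with Cox7a2l. Cox4i1 had 9207 ± 753 (SD, n = 3) normalized counts in naïve YFP-, 9030 ± 1487 in naïve YFP+, 8109 ± 257 in TEM YFP- and 7735 ± 1033 in TEM YFP+ cells. Cox8a, the ubiquitous form of subunit 8, had 4071 ± 356, 4261 ± 617, 4919 ± 395 and 5100 ± 679 in the same order, and Ndufa4 had 2294 ± 223, 2320 ± 239, 2450 ± 315 and 2473 ± 321. None of these 3 passed the test in any comparison, with limma adjusted p from 0.0801 (Cox8a) to 0.566 (Ndufa4) for TEM against naïve YFP- cells. With the replicate block Cox8a was called for TEM against naïve cells in YFP- (limma adjusted p = 0.025) and in YFP+ cells (limma adjusted p = 0.0356). Cox4i2, Cox8b, Cox8c and Ndufa4l2 were not analysed here.

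Summed over a complex, the genes differed by little between the groups. The 36 complex I subunit genes summed to 61528 ± 1630 (SD, n = 3) normalized counts in naïve YFP-, 61246 ± 5427 in naïve YFP+, 61092 ± 4167 in TEM YFP- and 58843 ± 4476 in TEM YFP+ cells. For the 17 genes of complex V the sums were 110648 ± 7476, 111004 ± 16636, 107647 ± 4409 and 105499 ± 9568. The 13 subunit genes of complex IV summed to 34081 ± 2231, 34217 ± 4354, 36533 ± 2542 and 34852 ± 4078. Complex III gave 28664 ± 1539, 27999 ± 3648, 26978 ± 1672 and 26476 ± 2346, and complex II 20809 ± 1300, 20953 ± 2277, 20211 ± 402 and 20956 ± 1418. In these sums, to which abundant genes give most, the groups overlapped in every complex. In the mean log2 level, where each gene counts alike, complex IV was at 10.26 to 10.41 in TEM YFP- libraries and lower in every naïve YFP- library, down to 9.96. The low isoforms Cox6b2 and Cox7a1 were then left out, a choice made after the values were seen. The other 11 genes were at 11.45 to 11.65 in TEM YFP- and 11.28 to 11.44 in naïve YFP- libraries. Libraries differed more than groups did: over all 78 subunit genes the sum was 291333, 228758 and 246165 in naïve YFP+ replicates 1, 2 and 3, and 271360, 230046 and 238467 in TEM YFP+ replicates 1, 2 and 3. Replicate 1 was thus the highest library of both YFP+ groups and also of the naïve YFP- group (269229, 241077 and 256883), while replicate 2 was highest in TEM YFP- cells (243944, 267484 and 245958). As a share of all reads the 91 members ran from 0.552% in naïve YFP+ replicate 2 to 0.662% in TEM YFP- replicate 2.

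**Figure D2:**
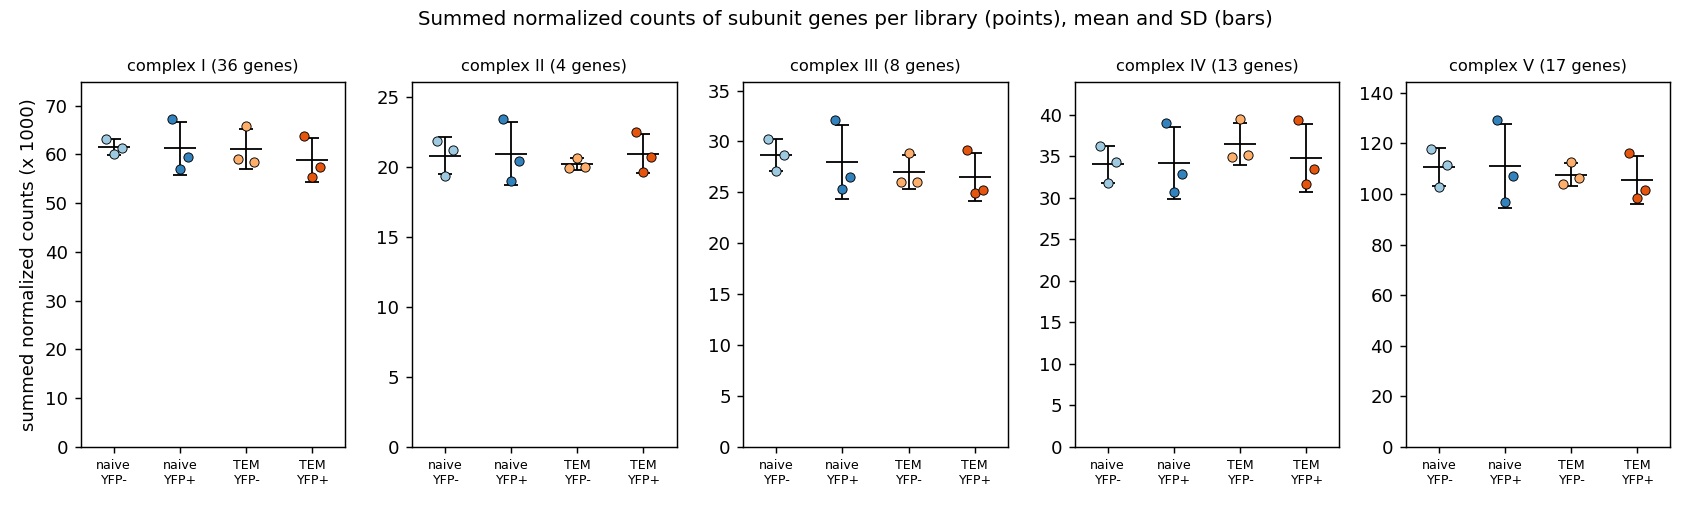
Summed normalized counts (in units of 1000) of the subunit genes of each complex in every library, with the mean and SD of 3 libraries per group. The groups overlap in every complex, and replicate 1 of both YFP+ groups is the highest library of its group in each panel.

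Single genes were then compared between YFP- cells sorted as TEM and as naïve by CD62L and CD44. Whether the cells had met antigen was not measured. Of the 90 members tested, 13 were higher and 6 lower in TEM cells at an adjusted p of 0.05 or less. Among all 15587 genes tested, 29.9% were higher and 19.9% lower, so the members changed in a smaller share (21.1% in either direction) than the table as a whole (49.8%) and than the 6990 genes between the 10th and 90th percentile of the members' mean levels (49.6%). Their changes were small. The median absolute log2 fold change was 0.16 over the members and 0.30 over those genes of like abundance. On the log2 scale 7 of the 90 differed by at least 0.5 in either direction, against 30.9% of those genes. The signed median was 0.04, beside 0.05 for all genes tested, and its sign was not stable. It was -0.02 without TEM YFP- replicate 2, where that of all genes was 0.04, and -0.10 with quantile normalization. Groups did not overlap for 36 members, or 40.0%, while the same held for 59.0% of all genes tested. Quantile normalization, which moved the median of all genes to -0.20, turned the split to 8 higher and 20 lower. With the replicate number as a block, 17 were higher and 10 lower.

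In YFP+ cells the same comparison gave 6 higher and 5 lower of 90, where 24.7% of all genes tested were higher and 16.7% lower. In either direction this was 12.2% of the members, against 41.4% of all genes and 43.0% of genes of like abundance. The members' median absolute change was 0.14 against 0.26 for genes of like abundance, and their signed median -0.02 against 0.03 for all genes tested, which became 0.06 without naïve YFP+ replicate 1 and 0.02 without TEM YFP+ replicate 2. Groups did not overlap for 20 members (22.2%), against 48.7% of all genes. Under quantile normalization, with the median of all genes at -0.14, 3 were higher and 17 lower. Without naïve YFP+ replicate 2, the library with the most macrophage marker RNA among the naïve ones, 2 were higher and 6 lower. The split of higher and lower members therefore depends on the scaling, and the counts below are relative to the authors' size factors.

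**Figure D3:**
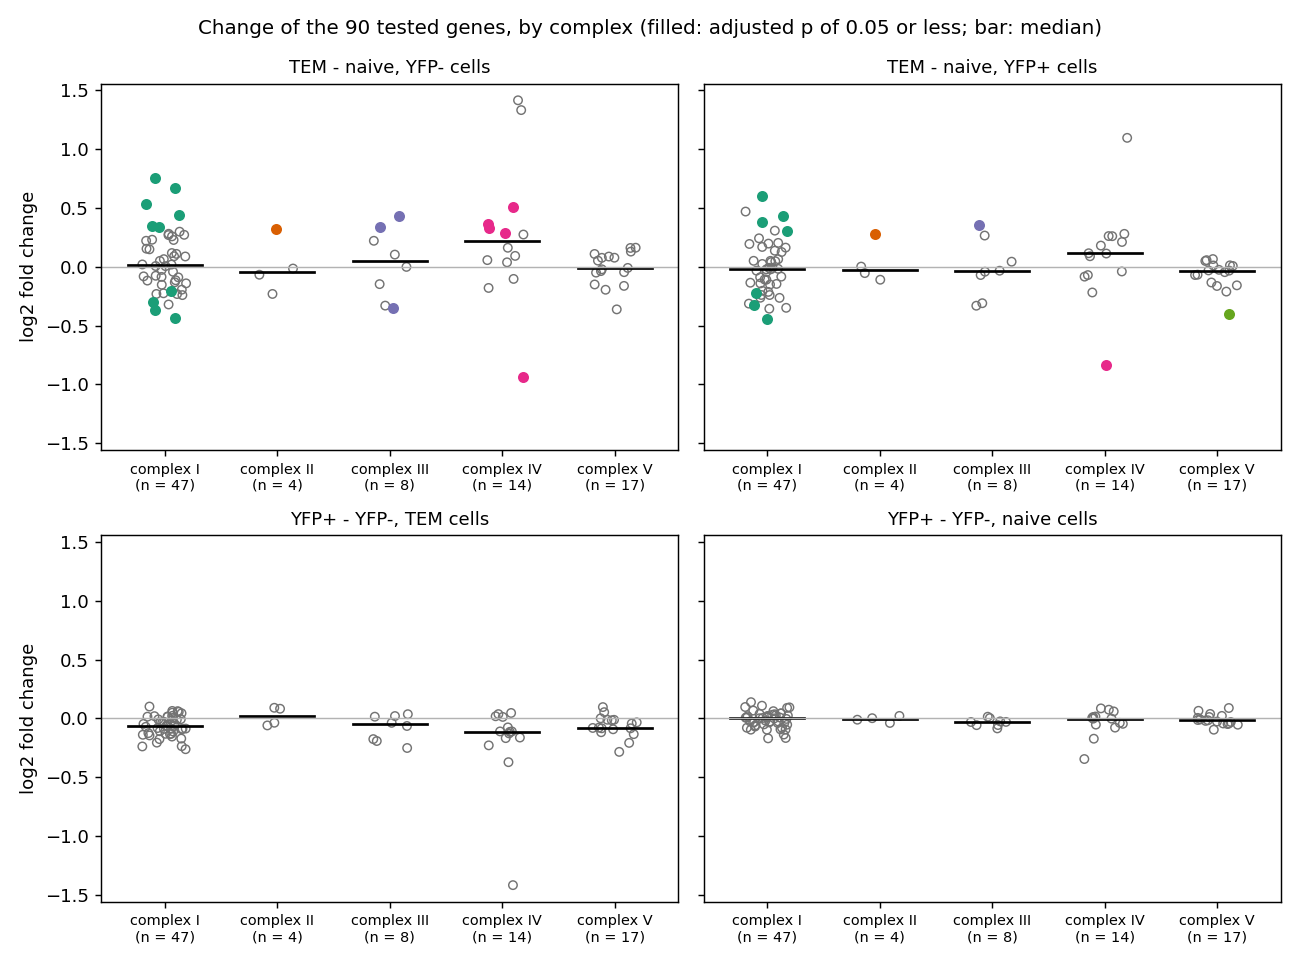
Log2 fold change of the 90 tested members by complex in the 4 comparisons, with filled points at an adjusted p of 0.05 or less and a bar at the median of each complex. TEM cells differ from naïve cells in 13 genes higher and 6 lower (YFP-) and 6 higher and 5 lower (YFP+), while no gene is filled between YFP+ and YFP- cells.

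The comparisons within YFP- and within YFP+ cells share no library, although replicates of one number may come from one animal. Across the 90 members their log2 fold changes had a Pearson coefficient of 0.89 and a Spearman coefficient of 0.87 (0.87 for Pearson without Cox7a2l), given as a description across genes. In all, 9 genes passed the threshold in both, which is 47.4% of the 19 called in YFP- and 81.8% of the 11 called in YFP+ cells. They were Ndufb8, Ndufb7, Ndufaf7, Sdhd and Uqcrb, which rose, and Cox7a2l, Ndufa6, Ndufaf4 and Ndufs1, which fell. All 21 genes called in either had the same sign in the other, and 69 were called in neither.

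**Figure D4:**
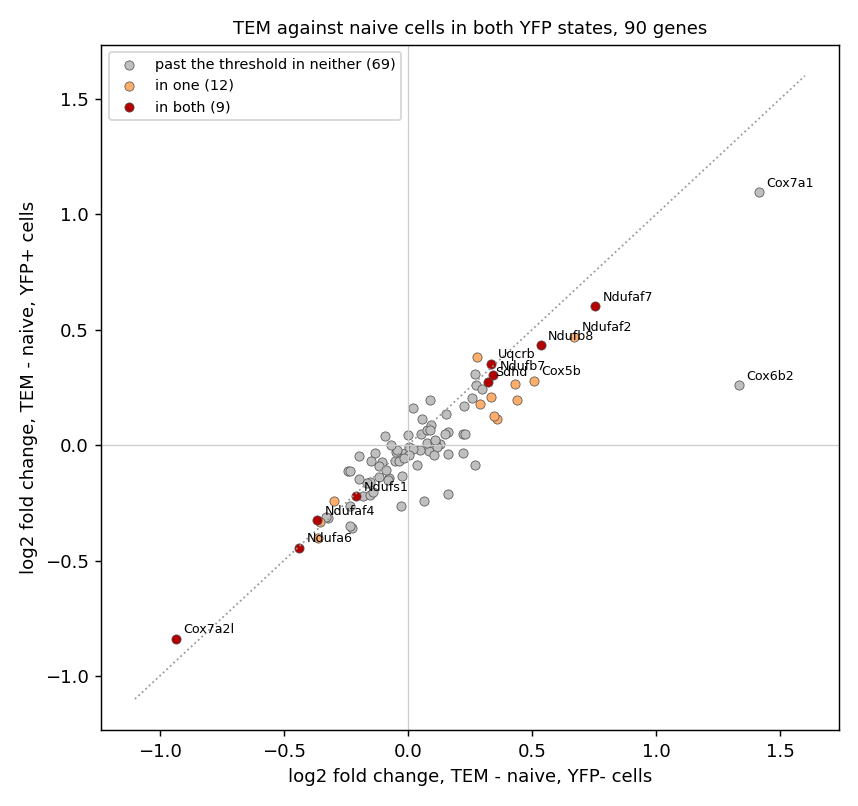
Log2 fold change of TEM against naïve cells in YFP- cells (x) and in YFP+ cells (y) for the 90 tested members, coloured by whether the adjusted p was 0.05 or less in neither (69), in one (12) or in both (9); the dotted line marks equal change. Cox7a2l lies alone at the lower left, and Cox7a1 and Cox6b2, at the far right, have few reads and are not past the threshold.

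The gene that changed most among those past the threshold was Cox7a2l, counted here as a supercomplex factor rather than a subunit. Its protein, related to subunit 7a, is known as a factor for supercomplexes of complexes III and IV. Neither the protein nor supercomplexes were measured, and whether it acts in this way in these mice was not tested. The gene spans chr17:83501917-83514333 (GRCm38.p6). It had 21468, 18425 and 18482 normalized counts in naïve YFP- replicates 1, 2 and 3, and 9844, 10148 and 10460 in TEM YFP- ones. In YFP+ cells it had 22373, 16052 and 17316 in naïve and 12298, 8946 and 9876 in TEM libraries. Every TEM library was below every naïve library. TEM cells held 0.523 of the naïve level in YFP- cells (95% CI 0.425 to 0.643, limma adjusted p = 0.000105) and 0.559 in YFP+ cells (0.455 to 0.687, limma adjusted p = 0.000348). The log2 fold change stayed between -0.98 and -0.70 over all alternatives in both YFP states. Of all genes tested, 32.3% changed by more in each comparison. Larger changes than this fall, the largest of the called members, were thus common in the table. Its relative Cox7a2, the ubiquitous subunit 7a, had 1242 ± 110, 1107 ± 165, 1290 ± 79.6 and 1191 ± 65.7 (SD, n = 3) in naïve YFP-, naïve YFP+, TEM YFP- and TEM YFP+ cells, with limma adjusted p = 0.71 in YFP- and 0.456 in YFP+ cells. As a share of the level per length of Cox7a1, Cox7a2 and Cox7a2l, Cox7a2 thus went from 9.98 to 18.1% in YFP- and from 9.38 to 16.6% in YFP+ cells, and Cox7a2l from 90.0 to 81.8% and from 90.6 to 83.2%. Cox7a2 overlaps other annotated genes, Gm51685 and Tmem30a.

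**Figure D5:**
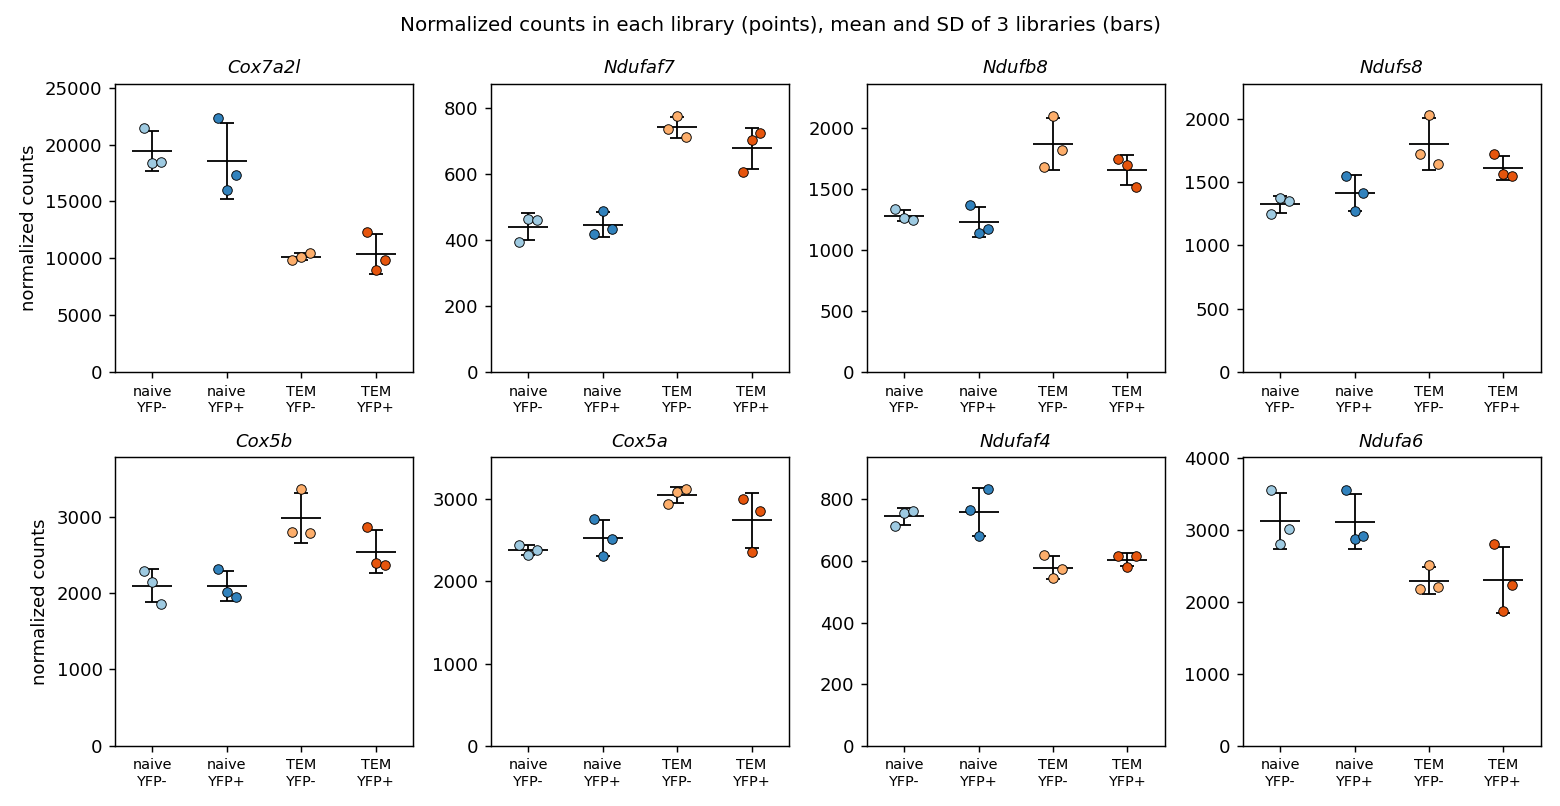
Normalized counts of 8 members in every library, with the mean and SD of 3 libraries per group. Cox7a2l is 8946 to 12298 in TEM and 16052 to 22373 in naïve libraries, Ndufaf7 and Ndufb8 are higher in every TEM library, and Cox5a in TEM YFP+ cells overlaps the naïve libraries.

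Complex I, the largest, had 6 genes higher and 4 lower of 47 tested in TEM YFP- cells, and 4 higher and 3 lower in TEM YFP+ cells. Both directions occurred among subunits and among assembly factors. Of the core subunits, which carry the redox groups, Ndufs8, an iron-sulfur subunit (chr19:3908863-3912774), had 1246, 1375 and 1349 normalized counts in naïve YFP- and 1724, 2030 and 1642 in TEM YFP- libraries. It rose 1.35-fold in YFP- cells (95% CI 1.16 to 1.58, limma adjusted p = 0.00356). In YFP+ cells it had 1412 ± 139 in naïve and 1612 ± 94.8 (SD, n = 3) in TEM cells, with limma adjusted p = 0.155. Ndufs1, another iron-sulfur core subunit, had 2726, 3169 and 2895 in naïve YFP- and 2453, 2585 and 2554 in TEM YFP- libraries. It fell to 0.865 of the naïve level in YFP- cells (limma adjusted p = 0.0435) and 0.858 in YFP+ cells (limma adjusted p = 0.0403), the smallest change called in complex I. Reads from Ino80dos, which overlaps Ndufs1, cannot be told apart from its own unless strand was used in counting, which is not stated.

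Among the accessory subunits of complex I, which surround the core, Ndufb8 (chr19:44548571-44555442) rose most. It had 1337, 1267 and 1247 normalized counts in naïve YFP- and 1680, 2100 and 1824 in TEM YFP- libraries, and 1368, 1138 and 1176 in naïve YFP+ and 1750, 1701 and 1514 in TEM YFP+ ones. The increase was 1.45-fold in YFP- cells (95% CI 1.24 to 1.70, limma adjusted p = 0.000995) and 1.35-fold in YFP+ cells (1.15 to 1.58, limma adjusted p = 0.00536), and no TEM library overlapped a naïve one. Ndufa6 moved the other way, from 3556, 2797 and 3004 in naïve YFP- to 2171, 2509 and 2202 in TEM YFP- libraries, and from 3548, 2865 and 2915 in naïve YFP+ to 2798, 1879 and 2238 in TEM YFP+ ones. It fell to 0.738 of the naïve level in YFP- cells (limma adjusted p = 0.0226) and 0.735 in YFP+ cells (limma adjusted p = 0.0254). Ndufb7 rose in both states, 1.27-fold and 1.23-fold. Ndufc2 rose 1.27-fold and Ndufa10 fell to 0.813 in YFP- cells, and neither passed the test in YFP+ cells, with limma adjusted p = 0.34 and 0.101.

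Of the 8 assembly factors, which build complex I and are not part of the finished enzyme, Ndufaf7 (chr17:78937106-78948052), a methyltransferase that modifies a core subunit, rose most. Its counts were 393, 465 and 462 in naïve YFP- and 737, 775 and 711 in TEM YFP- libraries, and 417, 489 and 433 in naïve YFP+ and 606, 703 and 723 in TEM YFP+ ones. All TEM libraries were above all naïve libraries, by 1.69-fold in YFP- (95% CI 1.41 to 2.02, limma adjusted p = 0.000205) and 1.52-fold in YFP+ cells (1.27 to 1.82, limma adjusted p = 0.00152). Ndufaf4 fell, from 714, 756 and 763 to 618, 543 and 574 in YFP- and from 764, 680 and 833 to 617, 579 and 616 in YFP+ cells, to 0.776 and 0.798 of the naïve level (limma adjusted p = 0.0117 and 0.0258). Ndufaf2 had 165, 109 and 105 normalized counts in naïve YFP- and 171, 248 and 181 in TEM YFP- libraries. It rose 1.59-fold there (limma adjusted p = 0.0234), but its change was -0.46 on the log2 scale under quantile normalization, so its direction depends on the scaling. Ndufaf1 rose 1.30-fold in YFP+ cells (limma adjusted p = 0.0406) and had limma adjusted p = 0.108 in YFP- cells. Ndufaf4 and Ndufaf2 overlap other annotated genes, Gm46848 and Gm52057.

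The copies of complex I genes gave no call. Ndufb4b had 938 ± 93.4 (SD, n = 3) normalized counts in naïve YFP- and 805 ± 113 in TEM YFP- cells, and Ndufb4c 1013 ± 114 and 863 ± 112, both above Ndufb4 itself (371 ± 44.9 and 296 ± 26.1). Ndufs5-ps had 295 ± 33.6 and 362 ± 24.1, against 589 ± 53.9 and 691 ± 59.5 for Ndufs5. Reads that these near-identical genes share could have been split between them, so the level of each is uncertain. Ndufb4b, Ndufb4c and Ndufs5-ps also overlap other annotated genes, Dock8, Mroh5 and Zbtb20 in this order. Ndufa11b, at 4.65 normalized counts or less in every library, fell below the filter and was not tested.

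Complex II, which also works in the TCA cycle, has 4 subunits, all nuclear. The membrane anchor Sdhd (chr9:50596340-50603849) had 2079, 1850 and 1940 normalized counts in naïve YFP- and 2362, 2525 and 2455 in TEM YFP- libraries, and rose 1.25-fold (95% CI 1.08 to 1.46, limma adjusted p = 0.0176). In YFP+ cells it had 2247, 1809 and 1796 in naïve and 2597, 2193 and 2273 in TEM libraries, which overlapped, and rose 1.21-fold (1.04 to 1.41, limma adjusted p = 0.0445). The other anchor, Sdhc, had 3206 ± 227 (SD, n = 3) in naïve YFP- and 2729 ± 151 in TEM YFP- cells (limma adjusted p = 0.0527). It was called in 9 of 22 alternatives, the replicate block among them (limma adjusted p = 0.0267). The flavoprotein Sdha had 11971 ± 908 and 11397 ± 125 (limma adjusted p = 0.555), and the iron-sulfur subunit Sdhb had 3676 ± 118 and 3637 ± 135 (limma adjusted p = 0.92). For Sdha the 95% interval of the ratio of TEM to naïve cells was 0.834 to 1.09 in YFP- and 0.875 to 1.14 in YFP+ cells.

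Complex III had 2 genes higher and 1 lower of 8 in YFP- cells, and 1 higher in YFP+ cells. The 2 that rose were small accessory subunits. Uqcrb, near the quinone site, had 1223, 1230 and 1402 in naïve YFP- and 1582, 1748 and 1527 in TEM YFP- libraries, and rose 1.26-fold in YFP- (limma adjusted p = 0.0185) and 1.28-fold in YFP+ cells (limma adjusted p = 0.0171). Uqcr11 had 682, 739 and 725 in naïve YFP- and 812, 1215 and 911 in TEM YFP- libraries, a 1.35-fold rise (limma adjusted p = 0.0244), with TEM YFP- replicate 2 its highest library. Uqcrfs1, the Rieske iron-sulfur protein and a redox subunit of the complex, went the other way. It had 3976, 3231 and 3567 in naïve YFP- and 2799, 2817 and 2788 in TEM YFP- libraries, and fell to 0.783 of the naïve level (95% CI 0.640 to 0.958, limma adjusted p = 0.0445). In YFP+ cells it had 3658 ± 704 in naïve and 2892 ± 419 (SD, n = 3) in TEM cells, with limma adjusted p = 0.0661.

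In complex IV, 4 of the 13 subunit genes were higher in TEM YFP- cells, or 30.8%, near the 29.9% of all genes tested. None was higher in TEM YFP+ cells, where the share of all genes was 24.7%, and no interaction passed the test. The 4 were Cox5b, Cox5a, Cox6c and Cox6b1, all subunits around the catalytic core that mitochondrial DNA encodes. Cox5b (chr1:36691487-36693388) had 2285, 2148 and 1861 normalized counts in naïve YFP-, 2796, 3361 and 2790 in TEM YFP-, 2319, 2019 and 1946 in naïve YFP+ and 2869, 2397 and 2369 in TEM YFP+ libraries. TEM and naïve libraries did not overlap in either state. The ratio was 1.42 in YFP- (95% CI 1.20 to 1.69, limma adjusted p = 0.00277) and 1.21 in YFP+ cells (1.02 to 1.44, limma adjusted p = 0.0703). Cox5a had 2435, 2314 and 2375 in naïve YFP-, 2941, 3083 and 3123 in TEM YFP-, 2753, 2309 and 2517 in naïve YFP+ and 3004, 2355 and 2856 in TEM YFP+ libraries, so that the YFP+ groups overlapped. It rose 1.28-fold in YFP- cells (1.11 to 1.49, limma adjusted p = 0.00778), and the ratio in YFP+ cells was 1.08 (0.935 to 1.25, limma adjusted p = 0.385). Cox6c rose 1.26-fold and Cox6b1 1.22-fold in YFP- cells (limma adjusted p = 0.041 and 0.0269). The difference between the YFP states, tested as the interaction, had limma adjusted p = 0.582 for Cox5a, the smallest of complex IV.

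The tissue isoforms of complex IV were near the limit of detection. Cox6b2 had 4.61, 10.6 and 6.91 normalized counts in naïve YFP-, 2.47, 11.8 and 4.65 in naïve YFP+, 20.5, 17.8 and 19.4 in TEM YFP- and 7.08, 8.28 and 4.75 in TEM YFP+ libraries. The TEM YFP- libraries were above all others, but neither TEM against naïve YFP- cells (limma adjusted p = 0.0533) nor YFP+ against YFP- TEM cells (limma adjusted p = 0.162) passed the test. With the replicate block the former was called (limma adjusted p = 0.0387). Cox7a1 had 1.15, 4.24 and 2.30, then 0, 4.92 and 4.65, then 6.56, 6.67 and 11.2, and 5.06, 17.6 and 1.90 in the same order of groups, with limma adjusted p = 0.173 and 0.313 for TEM against naïve cells. The third tissue isoform of this complex in the table, Cox6a2, was left out of the members by rule and stands among the markers of plasmacytoid dendritic cells. It had 267, 107 and 220 normalized counts in TEM YFP- libraries and 10.1 or less in every other library.

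Complex V was the most even. None of its 17 genes was called in YFP- cells, where the log2 fold changes ran from -0.36 to 0.16, and 15 of the 17 intervals lay within 0.5 of 0 on the log2 scale. In YFP+ cells 1 gene was called. Atp5mpl, which encodes a small membrane subunit of the synthase, had 1827, 1254 and 1402 in naïve YFP+ and 1291, 990 and 1085 in TEM YFP+ libraries, which overlapped, and fell to 0.756 of the naïve level (95% CI 0.609 to 0.939, limma adjusted p = 0.0395). In YFP- cells it had 1525 ± 160 in naïve and 1184 ± 83.5 (SD, n = 3) in TEM cells, with limma adjusted p = 0.0524. Atp5b had 30158 ± 2614, 30117 ± 4327, 27098 ± 664 and 26866 ± 2272 in naïve YFP-, naïve YFP+, TEM YFP- and TEM YFP+ cells. The 3 subunit c genes also stayed without a call, with limma adjusted p from 0.492 (Atp5g2) to 0.724 (Atp5g3) in YFP- cells.

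The calls differed in how far they rested on single libraries. Of the 30 calls in both YFP states, 10 held under all 22 alternatives, namely Cox7a2l, Ndufaf7 and Ndufb8 in both states and Cox5a, Cox5b, Ndufs8 and Ndufaf4 in YFP- cells. Ndufc2 was lost with quantile normalization alone. The other 19 were lost without at least 1 library, and several of them also under another scaling or fit. Cox6c in YFP- cells was lost with quantile normalization, TMM factors, no variance trend and edgeR. Ndufaf1 in YFP+ cells was lost with quantile normalization, TMM factors and edgeR. For each of the 19, the largest limma adjusted p given below is that without a library, not that over all alternatives. In YFP- cells, TEM YFP- replicate 2 and naïve YFP- replicate 2 were each needed by Ndufb7 (0.0779) and Sdhd (0.0606), and together with naïve YFP- replicate 1 by Uqcrb (0.0781). Ndufaf2 (0.107) needed naïve YFP- replicates 2 and 3 and TEM YFP- replicate 2, and Uqcr11 (0.116) needed naïve YFP- replicates 1 and 3 and TEM YFP- replicate 2. Ndufa6 (0.0941) needed naïve YFP- replicate 1 and TEM YFP- replicates 1 and 3. Cox6b1 (0.128) needed all naïve YFP- replicates and TEM YFP- replicate 2, and Cox6c (0.161) naïve YFP- replicates 2 and 3 and TEM YFP- replicates 1 and 2. Ndufa10 (0.137), Uqcrfs1 (0.153) and Ndufs1 (0.160) needed every TEM YFP- library and 2 naïve YFP- ones, replicates 1 and 3 for the first 2 genes and 2 and 3 for Ndufs1. Uqcrfs1 also needed replicate 3 of both YFP+ groups, and Ndufs1 these and TEM YFP+ replicate 2. In YFP+ cells, Uqcrb (0.0706) needed naïve YFP+ replicate 2 and TEM YFP+ replicates 1 and 3, and Ndufb7 (0.139) naïve YFP+ replicates 2 and 3 and TEM YFP+ replicates 1 and 3. Ndufa6 (0.108) and Ndufaf4 (0.118) needed naïve YFP+ replicate 1 and TEM YFP+ replicates 2 and 3, and Ndufaf4 also naïve YFP+ replicate 3. Atp5mpl (0.158) needed the same libraries as Ndufaf4 and TEM YFP- replicate 1. Ndufaf1 (0.159) needed all naïve YFP+ libraries, TEM YFP+ replicates 2 and 3 and TEM YFP- replicate 3. Ndufs1 (0.135) and Sdhd (0.167) were each lost without any of 8 libraries, which included naïve YFP+ replicates 2 and 3, all TEM YFP- libraries, naïve YFP- replicate 3 and TEM YFP+ replicate 1, with TEM YFP+ replicate 2 the eighth for Ndufs1 and replicate 3 for Sdhd.

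The comparison between TEM cells that had or had not expressed GM-CSF gave no call among the 90 members, 0 higher and 0 lower. Among all genes tested, 2.3% were higher and 4.67% lower in TEM YFP+ cells. With the replicate block 814 of them were higher and 1055 lower, against 359 and 728 without it, and the members still gave 0. At an unadjusted p under 0.05 there were 2 members, Cox6b2 and Ndufab1, the mitochondrial acyl carrier protein, against 17.1% of all genes, and edgeR and DESeq2 on the reads also called none. The members' median log2 fold change was -0.06, beside -0.01 for all genes tested, and 66 of 90 were below 0. This difference moved both ways with single libraries. The members' median was -0.006 without TEM YFP- replicate 2 and -0.017 without TEM YFP+ replicate 2, where that of all genes was -0.032. It was -0.136 and -0.045 without TEM YFP+ replicates 1 and 3, and -0.097 and -0.091 without TEM YFP- replicates 1 and 3. Groups did not overlap for 6 members, against 25.0% of all genes. The 95% interval of the change lay within 0.5 of 0 on the log2 scale, that is within 1.41-fold, for 81 of 90 members, and within 1 for 88. The 2 beyond that were Cox6b2 and Cox7a1. For Cox7a2l the ratio of YFP+ to YFP- TEM cells was 1.01 (0.824 to 1.25), for Ndufaf7 0.912 (0.761 to 1.09), for Ndufb8 0.888 (0.758 to 1.04), for Cox5b 0.853 (0.718 to 1.02), for Sdha 1.07 (0.932 to 1.22) and for Atp5b 0.989 (0.830 to 1.18). Ndufc1, an accessory subunit of complex I, had 411, 541 and 463 normalized counts in TEM YFP- and 397, 382 and 394 in TEM YFP+ libraries, without overlap, and limma adjusted p = 0.33.

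Naïve YFP+ and YFP- cells were closer still. No member was called, while 0.00642% of all genes were higher and 0.0% lower (1 and 0 genes, or 2 and 4 with the replicate block), and none of the 90 had an unadjusted p under 0.05, against 3.32% of all genes. With edgeR and DESeq2 the count was also 0. Groups did not overlap for 1 member, Ndufa11, against 5.38% of all genes. The median log2 fold change was -0.01, and 86 of 90 intervals lay within 0.5 of 0. The interaction likewise gave no call above or below 0, against 0.828% and 2.73% of all genes. These were 129 genes above and 425 below 0, or 293 and 597 with the replicate block. No member had an unadjusted p under 0.05 for the interaction, against 11.7% of all genes. EdgeR and DESeq2 called none. The smallest adjusted p was 0.506, for Ndufc1, and the intervals of the interaction were wider, with 57 of 90 within 0.5 and 88 within 1.

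Genes that act with the complexes but fall outside the prefixes were read from the same fit. Of 39 assembly factors tested, 5 were higher and 9 lower in TEM than naïve YFP- cells (35.9%), and 3 higher and 6 lower in YFP+ cells (23.1%), with medians of -0.10 and -0.05. The largest falls in YFP- cells were Lyrm7 (-0.90 on the log2 scale), which guides the Rieske protein, and Sco2 (-0.87), a copper carrier for complex IV, and Coa4 rose by 0.68. Surf1 and Cox17, both needed for complex IV, rose in both states. Between TEM YFP+ and YFP- cells 1 of the 39 was called, Cox10, which acts in heme A synthesis. It had 1129 normalized counts on average in TEM YFP- and 2548 in TEM YFP+ cells, a log2 fold change of 1.14 (limma adjusted p = 0.0013).

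Of 24 genes for electron carriers and for exchange across the membrane, 6 were higher and 2 lower in TEM YFP- and 5 higher and 1 lower in TEM YFP+ cells (33.3 and 25.0%). Atpif1, the inhibitor of ATP synthase, rose by 1.72 on the log2 scale in YFP- cells, from 265 to 873 normalized counts, and was lower by 0.75 in TEM YFP+ than TEM YFP- cells (limma adjusted p = 0.0036). Etfb, which feeds electrons from fatty acid oxidation, rose by 1.23 and Coq3, of ubiquinone synthesis, by 0.74. Of 18 TCA cycle genes, 3 were higher and 4 lower in YFP- and 1 higher and 4 lower in YFP+ cells (38.9 and 27.8%). Idh2 fell by 1.01 and by 1.07, and Fh1, fumarase, rose by 0.73 in YFP- cells and was lower by 0.47 in TEM YFP+ than TEM YFP- cells. Among 13 regulators of respiratory genes, none was higher and 6 were lower in TEM YFP- cells, and 4 were lower in TEM YFP+ cells (46.2 and 30.8%). All 4 lists were called in a smaller share than all genes tested, 49.8% in YFP- and 41.4% in YFP+ cells, while the regulators were lower in a larger share than the 19.9 and 16.7% of all genes that were lower. Of these the coactivators Ppargc1b and Pprc1 fell by 0.89 and 0.84 in YFP- and by 0.50 and 1.01 in YFP+ cells, and Polrmt, the mitochondrial RNA polymerase, by 0.52 and 0.45. In naïve cells no gene of the 4 lists was called between YFP+ and YFP- cells.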

How the data were processed

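Total RNA (200 ng per library, stranded kit) was sequenced in 12 libraries. Values were deposited as a signal, namely counts that the authors normalized. For this they mapped reads to mm10 with DRAGEN, counted them per gene with Rsubread and divided each library by a DESeq2 size factor. Annotation and strand setting are not given in the sources used here. Whole reads were recovered for 100% of values (tolerance 0.01). Genes were named from RefSeq (GRCm38.p6) by Entrez identifier, and 774 stayed unnamed.

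Genes were kept at 5 normalized counts or more in at least 3 libraries, and these 15587 were fitted in limma 3.58.1 (R 4.3.3) on log2(normalized count + 1), with 4 group means and a variance trend, and p-values were adjusted over all of them by Benjamini and Hochberg. This scale understates the change of low genes. The scripts were tested on simulated data. Alternatives were other pseudocounts, no filter, quantile or TMM scaling, a replicate block, no variance trend, edgeR 4.0.16 and DESeq2 1.42.0 on the recovered reads, and leaving out each library.

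Members and lists were chosen with earlier results of these data known. Named were, per comparison and complex, the 3 largest and the smallest change among the calls, complex II, the isoform sets, members below the filter and up to 3 genes per list. Chosen after their values were seen were the other called members (Ndufs8, Ndufb7, Ndufc2, Ndufa10, Ndufaf1, Ndufaf4 and Cox6c), the highest levels per length (Atp5a1, Atp5b and Uqcrh), the gene copies with Ndufb4 and Ndufs5, and Ndufc1, Ndufab1, Ndufa11 and Cox17.

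Deviations from group means of same-numbered libraries correlated by 0.306 to 0.491 between the naïve, 0.180 to 0.356 between the TEM and 0.137 to 0.232 between the YFP- groups, which the numbers were taken to pair. Between the YFP+ groups the range was -0.020 to 0.204. It was 0.065 to 0.176 between naïve YFP- and TEM YFP+ cells, and 0.104 to 0.212 between naïve YFP+ and TEM YFP- cells.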

Additional observations from a re-analysis of the deposited data

Results flagged for a closer look

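The interaction of cell type and YFP was past the threshold for 2 genes of the pathway outside the members. For Cox10, of heme A synthesis, the interaction was 0.96 on the log2 scale, with 1785, 2012, 1129 and 2548 normalized counts on average in naïve YFP-, naïve YFP+, TEM YFP- and TEM YFP+ cells (limma adjusted p = 0.0484). For Fh1, fumarase, it was -0.56, with 1454, 1542, 2418 and 1740 (limma adjusted p = 0.0191). Both stand here because the difference between YFP+ and YFP- cells itself differed between TEM and naïve cells. Summed markers of plasmacytoid and conventional dendritic cells were highest in the TEM YFP- libraries, and their part in both values was not tested.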

How the results depend on the processing

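Over all alternatives no member was called between YFP+ and YFP- cells or in the interaction. For TEM against naïve cells the counts moved with the choice. In YFP- cells (13 higher, 6 lower) they were 8 and 20 with quantile normalization, 12 and 10 with TMM factors, 17 and 10 with the replicate block, 13 and 3 without the variance trend, 12 and 10 with edgeR, 14 and 9 with DESeq2, and 13 and 13 with edgeR and the block, an alternative chosen after seeing the data. In YFP+ cells (6 higher, 5 lower) they were 3 and 17 with quantile normalization, 5 and 7 with TMM factors, 9 and 9 with the block, 4 and 2 without the trend, 5 and 6 with edgeR, 7 and 6 with DESeq2, and 9 and 10 with edgeR and the block. Replicate numbers were taken to pair the naïve, the TEM and the YFP- groups by the correlations above. These reached lower values between the 2 YFP+ groups, which with 3 libraries per group does not show that their libraries are unpaired. With the block no member was called in the other comparisons. Sdhc, Cox8a and Cox6b2, named above, gained calls in YFP- cells, and Cox8a also in YFP+ cells. Leaving out single libraries gave 6 to 16 higher and 2 to 9 lower in YFP- cells, and 2 to 8 higher and 1 to 8 lower in YFP+ cells. In YFP- cells the counts moved by over 1.5 times without TEM YFP- replicate 2 (6 higher) or naïve YFP- replicate 2 (8 higher), without naïve YFP- replicate 1 or 3 (3 lower each) and without TEM YFP- replicate 1 or 3 (2 lower each). In YFP+ cells they did so without naïve YFP+ replicate 2 (2 higher) or 3 (3 higher, 2 lower), naïve YFP+ replicate 1 (2 lower), TEM YFP+ replicate 1 (3 higher, 8 lower), 2 (1 lower) or 3 (3 higher, 2 lower), and TEM YFP- replicate 1 (3 lower). Ndufaf2 in YFP- cells reversed to -0.46 under quantile normalization. The causes were not tested. With 3 libraries per group the median half-width of a 95% interval was 0.25 on the log2 scale, which limits what could be seen.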
